A study of Mus musculus with 8 samples.

Results

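Large T cell clones, those of at least 10 cells, were examined for lineage and state in brain tumours of mice with ZFTA-RELA ependymoma, a childhood tumour of the central nervous system. A clone was defined as the cells of a library with the same CDR3 nucleotide sequence and the same V and J genes in both chains of the T cell receptor. The clones were chosen by their measured size in the receptor libraries, counted over cells with exactly 1 productive alpha chain (TRA) and 1 productive beta chain (TRB). By this rule 36 clones with 929 cells were large, out of 6121 such cells in the 3 receptor libraries analysed.

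The mice had the genotype label NestinCreERT2;Fus1;RFPTdT, in which the tumour gene is switched on in Nestin-expressing cells. They were randomised at 3 weeks of age and, per the labels, sampled at 6 to 8 weeks, while the treatment notes follow mice to a humane endpoint and the study places these tumours at recurrence. They were given 1 intrathecal dose of mavrilimumab (5 mg per kg), an antibody against the GM-CSF receptor, or of a control antibody labelled vehicle IgG. Cells were stained for CD45 and Ter119 and sorted, and droplet libraries were made for gene expression (4 libraries) and for receptors. The study describes pooled tumours, and the labels do not say how many animals went into a library.

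The labels of the libraries crossed. Of the 2749 cells in the receptor library labelled mavrilimumab 1, 2645 (96.2%) had their barcode in the expression library labelled mavrilimumab 2 and 3 in that labelled mavrilimumab 1. For the 5659 cells of the receptor file labelled mavrilimumab 2, the match was with expression library mavrilimumab 1 (5035 cells, 89.0%) and not with mavrilimumab 2 (9 cells). These joined pairs are called library 1 and library 2 after the receptor label. The sample name inside each of the 3 receptor files named the other treatment than its label, so no comparison between treatments was made, and 3 cell barcodes were shared by the receptor files of library 1 and library 2. In the receptor library labelled vehicle IgG 1, 147 cells formed 143 clones of at most 3 cells, so it held no large clone. Receptors of vehicle IgG 2 were not analysed here.

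Each alpha-beta T cell assembles its receptor by joining V and J segments, with D segments in the beta chain, and trimming or adding bases at the joints, so cells with the same joined sequences descend, as a rule, from 1 rearranged cell. CD8 T cells kill cells that show them antigen on MHC class I, with granzymes among their weapons. CD4 T cells read MHC class II and include regulatory T cells, which need the transcription factor Foxp3 and restrain other T cells. Pdcd1 encodes PD-1, an inhibitory receptor that T cells raise on activation and keep under lasting stimulation. Gzmk and Gzmb encode granzymes K and B, and in a clone these genes show whether daughter cells of 1 ancestor share a state.

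Library 2 held most of the large clones. It had 32 of them with 883 cells, 22% of its 4017 one-pair cells, and the largest had 157. Library 1 had 4 of them, with 13, 13, 10 and 10 cells, 2.35% of 1957 one-pair cells. The clones are named L1c1 to L1c4 and L2c1 to L2c32 by library and rank of size. No pair of chains occurred in both libraries (0 clones), and no large clone shared its TRA or its TRB with another large clone (0 pairs in either library). Outside the large clones, 3 cells of library 2 carried the TRA and 4 cells the TRB of a large clone.

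The CDR3 sequences of the clones that the results turn on follow from 5′ to 3′, with the bases between the end of the V match and the start of the J match in capitals. L2c1 was the largest CD8 clone and L2c11 the CD8 clone with the least Gzmk. L2c6 was a Foxp3-rich clone, L2c3 the CD4 clone with some Foxp3 cells, L2c4 the largest CD4 clone without Foxp3 and L1c1 a CD8 clone of library 1. L2c2 and L2c32 were the large clones most alike in sequence.
L1c1 TRA: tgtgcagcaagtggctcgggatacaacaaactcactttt
L1c1 TRB: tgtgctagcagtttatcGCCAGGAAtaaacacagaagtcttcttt
L2c1 TRA: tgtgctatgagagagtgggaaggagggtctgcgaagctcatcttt
L2c1 TRB: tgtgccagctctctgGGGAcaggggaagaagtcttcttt
L2c11 TRA: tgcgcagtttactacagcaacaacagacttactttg
L2c11 TRB: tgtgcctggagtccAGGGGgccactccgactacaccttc
L2c4 TRA: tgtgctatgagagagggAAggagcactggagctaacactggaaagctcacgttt
L2c4 TRB: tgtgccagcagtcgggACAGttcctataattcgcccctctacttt
L2c3 TRA: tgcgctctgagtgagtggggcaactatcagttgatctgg
L2c3 TRB: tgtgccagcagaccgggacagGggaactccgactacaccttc
L2c6 TRA: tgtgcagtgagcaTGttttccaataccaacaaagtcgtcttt
L2c6 TRB: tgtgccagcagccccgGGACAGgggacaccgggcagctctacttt
L2c2 TRA: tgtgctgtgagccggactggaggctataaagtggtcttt
L2c2 TRB: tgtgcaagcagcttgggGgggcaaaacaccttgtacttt
L2c32 TRA: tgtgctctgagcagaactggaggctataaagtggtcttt
L2c32 TRB: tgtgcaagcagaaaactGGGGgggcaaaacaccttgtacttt

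L2c2 and L2c32 used closely named gene segments, TRAV9N-3 and TRAV9N-4 with TRAJ12, and TRBV16 with TRBJ2-4 in both. Their TRA CDR3s, each of 39 bases, had 24 bases in a row in common. Their TRB CDR3s, of 39 and 42 bases, had 26. No other pair of large clones had so long a sum of shared runs. The runs lie at the 3′ end, where L2c2 and L2c32 use the same J segments. L2c4 and L2c5, both with TRAJ52, had a longer TRA run in common, of 31 bases. L2c2 and L2c32 both had Foxp3 in most of their cells, as given further on.

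Expression was read from 918 of the 929 cells, 46 in library 1 and 872 in library 2. The libraries differed in depth, with a median of 12613 UMIs (unique molecular identifiers, 1 per captured RNA molecule) per large-clone cell in library 1 and 3453.5 in library 2. Cells of clones of 1 cell had medians of 10811.5 and 3983 UMIs. A share of cells with a UMI depends on this depth, so such shares are compared between clones of the same library, and library 1 and library 2 only after thinning each cell to 2000 UMIs. T cell markers (Cd3d, Cd3e, Cd3g, Trac, Trbc2) were found in 100% of the CD8-clone cells of library 1, and in 99.8% and 99.7% of CD8-clone and CD4-clone cells of library 2.

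Free RNA was gauged in droplets with myeloid markers and no receptor, 840 in library 1 (median 9538 UMIs) and 212 in library 2 (median 5706). In library 2, 1.42% of them had Cd8a, 2.83% Cd8b1, 1.42% Cd4, 1.89% Foxp3, 0.943% Gzmk, 0.943% Gzmb and 12.3% Pdcd1. In library 1 these shares were 1.67%, 1.67%, 0.238%, 0.238%, 0.238%, 6.07% and 22.9% in the same order. Ccl5 was found in 31.1% of these droplets in library 2 and 22.4% in library 1. Pdcd1 and Ccl5 were far more common in these droplets than Cd8a or Gzmk, and free RNA and expression by the myeloid cells cannot be told apart here. Shares of Pdcd1 or Ccl5 at or below these levels are therefore not read as expression.

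Most large clones held cells of 1 called lineage. Cells were called CD8 with a UMI of Cd8a or Cd8b1 and none of Cd4, and CD4 with the reverse, and a clone took the lineage of at least 80% of its called cells. This gave 24 CD8 clones, 10 CD4 clones, 1 mixed clone (L2c16) and 1 clone (L2c32) with too few calls. The 24 CD8 clones had 532 cells, of which 520 were called CD8, 0 CD4, 3 both and 9 neither. All 4 large clones of library 1 were CD8, and 46 of 46 cells were called so. Foxp3 was found in 1.23% of the CD8-clone cells of library 2, against 1.89% of myeloid droplets, and in 2 of the 9 cells of L2c25 (22.2%, exact 95% interval 2.81% to 60.01%).

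The number of lineage calls depended on how many cells were kept. Without cells with at least 2 markers of other cell types, 6 large-clone cells of library 1 and 272 of library 2 remained, and 14 clones were called CD8 and 2 CD4. The 18 others with cells left had under 5 singly called cells, and 0 were mixed. No clone changed from CD8 to CD4 or back (0 clones).

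CD4 clones were less cleanly seen. Of their 360 cells, 219 were called CD4, 11 CD8, 14 both and 116 neither. Cd4 was found in 64.7% of these cells, whereas Cd8a and Cd8b1 were found in 93.8% and 95.5% of CD8-clone cells of the same library. Of the 11 called CD8, 8 were in Foxp3-rich clones, 2 in L2c3 and 1 in a Foxp3-poor clone. In CD4 clones Cd8b1 was found in 5.83% and Cd8a in 1.11% of cells, against 2.83% and 1.42% of myeloid droplets. Cd8b1 was uneven between these clones. It was found in 6 of 30 cells of L2c9 (20.0%, exact 95% interval 7.71% to 38.6%) and 7 of 70 of L2c2 (10.0%, 4.12% to 19.5%). The other CD4 clones had it in at most 5.56% of cells. L2c9 and L2c2 each had 5 cells called both.

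The mixed clone L2c16 had 18 cells, of which 7 were called CD4, 2 CD8, 3 both and 6 neither. Foxp3 was found in 9 of its 18 cells (50.0%, exact 95% interval 26.0% to 74.0%), and Ikzf2, which encodes Helios, in 94.4%. The uncalled clone L2c32 had 3 CD4 cells and 5 with no call among 8, Foxp3 in 5 (62.5%, 24.5% to 91.5%) and Ikzf2 in 62.5%. With Foxp3 in at least 50% of cells, both are counted with the Foxp3-rich clones. By share of cells, however, L2c16 had less Foxp3 and L2c32 less Ikzf2 than any Foxp3-rich CD4 clone. Intervals on shares of cells are exact (Clopper-Pearson), here and below, and cover counting error only.

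**Figure D1:**
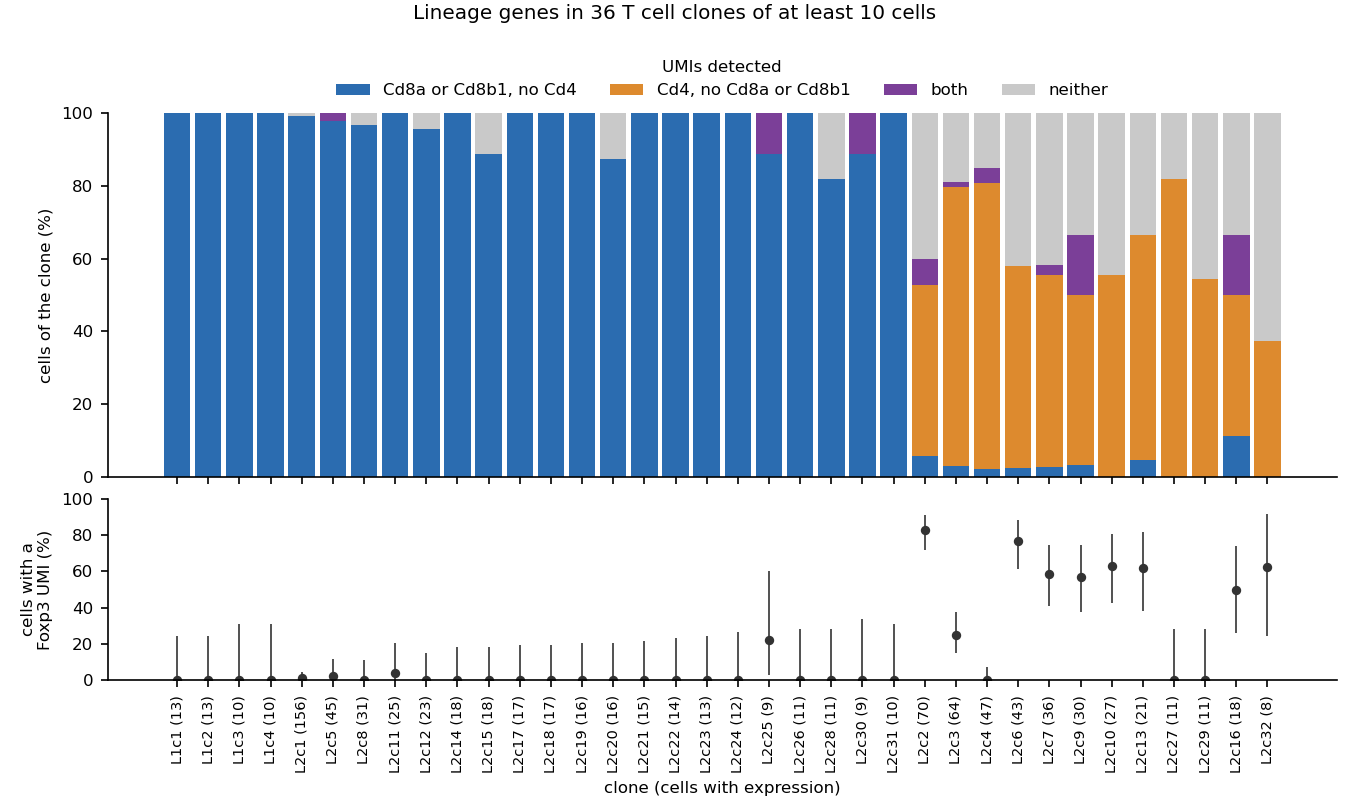
Percent of cells (y axis) called CD8, CD4, both or neither in each of the 36 large clones (x axis, in library and size order), with the percent of cells holding a Foxp3 UMI. No cell of a CD8 clone is called CD4, whereas L2c16 and some CD4 clones, such as L2c2 and L2c9, hold cells called CD8 or both. Foxp3 lies mostly in CD4 clones, L2c16 and L2c32, with 22.2% of 9 cells in the CD8 clone L2c25.

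Foxp3 divided the 10 CD4 clones, all of library 2. In 6 of them at least 50% of cells had a Foxp3 UMI. The share was 82.9% of 70 cells in L2c2 (exact interval 72.0% to 90.8%), 76.7% of 43 in L2c6 (61.4% to 88.2%), 63.0% of 27 in L2c10, 61.9% of 21 in L2c13, 58.3% of 36 in L2c7 and 56.7% of 30 in L2c9. In 3 clones no cell had one, and in the largest of these, L2c4, 0 of 47 cells allows a share of up to 7.55%. L2c3 lay between, with 16 of 64 cells (25%, 15% to 37.4%), an interval that overlaps none of those of L2c2, L2c6 and L2c4. It does overlap those of L2c27 and L2c29, each with 0 of 11 cells (upper limit 28.5%).

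The Foxp3-rich clones, L2c16 and L2c32 included, shared the other genes of regulatory T cells. Ikzf2 was found in 62.5% to 100% of their cells. Tnfrsf4, which encodes the costimulatory receptor OX40, was found in 74.1% to 100%, and Il2ra, the high-affinity interleukin-2 receptor chain, in 27.8% to 37.5%. L2c3, with Foxp3 in fewer cells, lay within these ranges for Ikzf2 (96.9%) and Tnfrsf4 (84.4%) and below them for Il2ra (17.2%). Cells of the Foxp3-rich clones without a Foxp3 UMI also held these genes. Ikzf2 was found in 91.3% of the 80 cells without and in 96.0% of the 173 with Foxp3, and Tnfrsf4 in 73.8% and 91.3%. Il2ra was found in 17.5% and 38.7%, and the median depth was 2511.5 and 3121 UMIs.

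L2c3 mixed Foxp3 cells and others under 1 receptor. Its 16 cells with and 48 cells without Foxp3 had nearly equal depth (medians 3077 and 2997 UMIs). Both kinds had Ikzf2 (100% and 95.8% of cells) and Pdcd1 (68.8% and 62.5%). They differed in Capg, an actin-capping protein, found in 93.8% (69.8% to 99.8%) and 33.3% (20.4% to 48.4%). Il2ra was found in 43.8% (19.8% to 70.1%) and 8.33% (2.32% to 20.0%), intervals that just overlap. The level of Tnfrsf4 was 24.2 and 8.05 UMIs per 10000. Cd40lg, the helper signal to B cells, and Cxcr5, a follicle-homing receptor, were found in 0 of 16 cells with Foxp3 and in 25% and 18.8% of the 48 without, and these intervals overlap. All 64 cells came from 1 library, so no test between the kinds was made.

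The Foxp3-poor CD4 clones differed among themselves. L2c4 had Tcf7, a transcription factor of naive and memory cells, in 78.7% of cells, Cxcr5 in 55.3%, Ikzf2 in 80.9% and Izumo1r in 70.2%. L2c27, with 11 cells, had Tcf7 in 90.9%, Gzmk in 72.7%, Cxcr5 in 18.2% and Ikzf2 in 27.3%. L2c29, also with 11 cells, had no cell with Ikzf2, Izumo1r, Cxcr5 or Pdcd1, whereas Ccl5, a chemokine of effector T cells, was found in 90.9% and Cxcr6, a receptor of tissue-homing T cells, in 72.7%. The mean level of Ccl5 was 110 UMIs per 10000 in L2c29, 0.20 in L2c4 and 1.25 in L2c27. In L2c4 and L2c27 it was found in 4.26% and 18.2% of cells, below the 31.1% of myeloid droplets. The 3 clones thus had 3 different sets of detected genes under the same Foxp3-poor call.

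Pdcd1 did not follow Foxp3. Among the Foxp3-rich CD4 clones it ranged from 27.8% of cells in L2c7 and 38.6% in L2c2 to 74.4% in L2c6 and 81.0% in L2c13. It was found in 64.1% of L2c3, 40.4% of L2c4, 36.4% of L2c27 and none of L2c29. Gzmk was found in at most 3.7% of the cells of any Foxp3-rich clone but in 34.0% of L2c4, 72.7% of L2c27 and 27.3% of L2c29. Gzmb was found in 22.9% of L2c2, in 7.81% of L2c3 and in at most 3.7% of the other CD4 clones.

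Rln3, which encodes the neuropeptide relaxin-3, was the gene most unequal between CD4 clones. Its mean level was 13.0 UMIs per 10000 in L2c6, 3.83 in L2c32, 3.37 in L2c16, 2.57 in L2c9 and 0.05 in L2c7, and no UMI was found in L2c2, L2c10 or L2c13. It was found in 63 of 253 cells (24.9%) of the clones with at least 50% Foxp3 cells and in 0 of 619 cells of the other large clones of library 2 (upper limit 0.594%). In clones under 10 cells of library 2 it was found in 16.2% of 365 cells with Foxp3 and 1.62% of 2661 without. In library 1 these shares were 14.5% of 69 and 2.36% of 1736 cells. Myeloid droplets had it in 0.472% (library 2) and 0.119% (library 1).

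**Figure D2:**
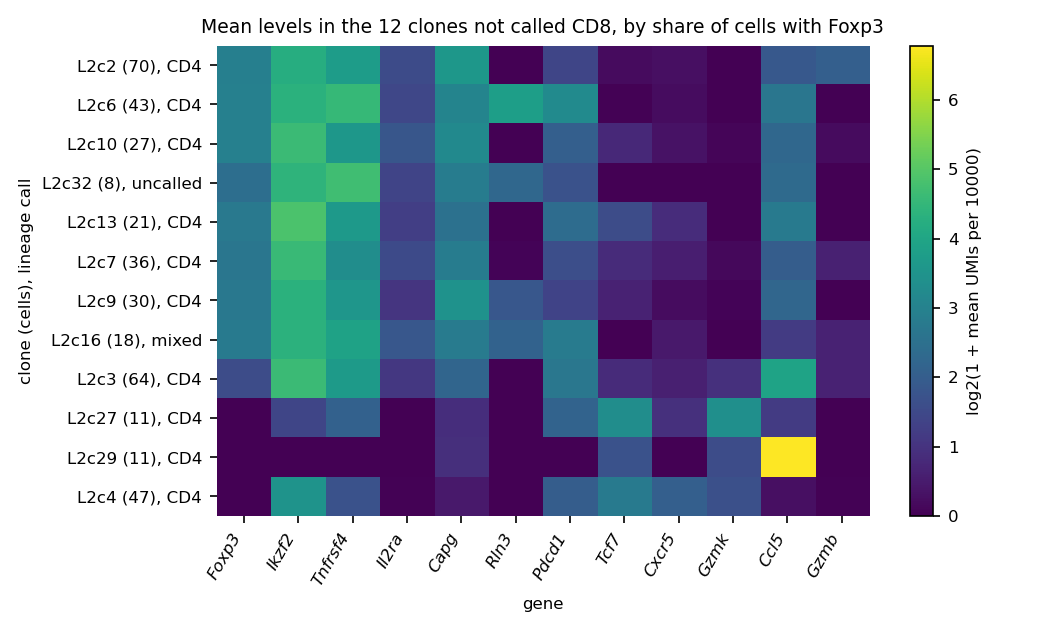
Mean level, as log2(1 + UMIs per 10000), of 12 genes (x axis) in the 12 clones not called CD8 (y axis, with their cells), ordered by share of cells with Foxp3. The Foxp3-rich clones and L2c3 share Ikzf2 and Tnfrsf4, Rln3 is bright in L2c6, L2c9, L2c16 and L2c32, and Tcf7 and Gzmk are bright in Foxp3-poor clones.

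Signs of other cells lay in some CD4 clones. Their summed level of the B cell markers was 53.0 UMIs per 10000, against 1.79 in the CD8 clones of library 2, and that of the 10 myeloid markers was 27.5 against 10.0, with 86.3 in L2c6. Ms4a1 was at 0 in the CD8 clones, no marker of either list was at 0 in the CD4 clones, and erythroid genes were at 0 in both. In 5 cells (1 each in L2c2, L2c3 and L2c7, and 2 in L2c13) immunoglobulin RNA exceeded 100 UMIs per 10000. Without them Foxp3 was found in 82.6%, 25.4%, 57.1% and 57.9% of the cells of these clones, so the 5 cells did not set the classes. These 4 clones had 49.8 to 241 UMIs per 10000 of the B cell markers, and the other CD4 clones 0.587 to 8.94. Ighm, the immunoglobulin heavy chain, was also spread over cells and moved with the Foxp3 class. It was found in 66.7% to 94.4% of cells of the Foxp3-rich clones (median 78.9%), in 46.9% of L2c3, in 9.09% to 59.6% of the Foxp3-poor CD4 clones and in a median of 28.1% in the CD8 clones of library 2. Its part in the Foxp3 results was not tested.

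A receptor family went with Foxp3 in library 2. It was chosen after its values were seen, from the likeness of L2c2 and L2c32. Cells with TRAJ12 and TRBV16 together numbered 104 in 10 clones, and 79 of them (76.0%) had Foxp3. Most of these cells were L2c2. In the 8 clones of the family under 10 cells, 16 of 26 cells (61.5%, 40.6% to 79.8%) had Foxp3, against 11.6% of 2740 cells with neither segment in clones under 10 cells. With TRAJ12 alone the share was 12.7% of 102 and with TRBV16 alone 10.8% of 158 such cells. The interval of the family counts cells and does not cover the spread between its 8 clones. Library 1 had 3 cells of the family, and 0 of them had Foxp3.

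Among the CD8 clones, Pdcd1 ran from nearly none to most cells. In library 2 it was found in 87.8% of the 156 cells of L2c1 (exact interval 81.6% to 92.5%), 85.7% of L2c22, 84.0% of the 25 cells of L2c11 (63.9% to 95.5%) and 77.8% of L2c14. At the other end it was found in 11.1% of L2c30, 9.09% of L2c28, 6.25% of L2c20 (0.158% to 30.2%) and 5.88% of L2c17 (0.149% to 28.7%), all at or below the 12.3% of myeloid droplets. The median over the 20 clones was 47.5%. The mean level was highest in L2c1, at 8.55 ± 6.52 UMIs per 10000 (SD over 156 cells), and lowest in L2c17, at 0.10 ± 0.41 (17 cells). The intervals of these clones do not overlap, whereas those of L2c1, L2c11 and L2c22 do. In library 1, Pdcd1 was found in 53.8%, 84.6%, 50.0% and 70.0% of cells of L1c1 to L1c4, whose intervals overlap.

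Gzmk was the most widely found of these 3 genes in the CD8 clones of library 2, but not in those of library 1, where Gzmb was found in more cells. It was found in 76.5% to 100% of the cells of 19 of the 20 CD8 clones of library 2. The other, L2c11, had it in 2 of 25 cells (8.00%, 0.984% to 26.0%). The mean level ran from 0.46 UMIs per 10000 in L2c11 to 15.8 in L2c28, with a median of 8.60. Clones with fewer UMIs per cell had higher Gzmk levels (Spearman's rho -0.774 over the 20 clones, which share a library, as a description), and the part of depth in this was not tested. After thinning to 2000 UMIs, Gzmk was still found in 51.6% to 91.9% of cells of the other clones and in 6.2% of L2c11. In library 1 it was found in 69.2% and 100% of cells of L1c1 and L1c2, and in 6 of 10 cells of both L1c3 and L1c4.

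Gzmb went its own way. In library 2 it was found in 93.3% of the 15 cells of L2c21 (68.1% to 99.8%) and 88.9% of the 9 of L2c25, but in 32.1% of L2c1 (24.8% to 40.0%), 12.5% of L2c20 and none of the 25 of L2c11 (upper limit 13.7%). The median clone had it in 32.2%. Library 1 had it in 76.9% of cells of L1c1, 69.2% of L1c2, 9 of 10 of L1c3 and 10 of 10 of L1c4, with mean levels from 4.79 in L1c2 to 43.6 in L1c4. Thinned to equal depth, Gzmb was found in 66.8% of CD8-clone cells of library 1 and 28.4% of those of library 2, Gzmk in 34.4% and 67.6%, and Pdcd1 in 26.6% and 46.4%. Thinning left out 0 and 35 cells. Before it these shares were 82.6% and 34.8% for Gzmb, 73.9% and 82.3% for Gzmk, and 65.2% and 59.7% for Pdcd1. The libraries are 1 sample each, so this difference has no test.

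**Figure D3:**
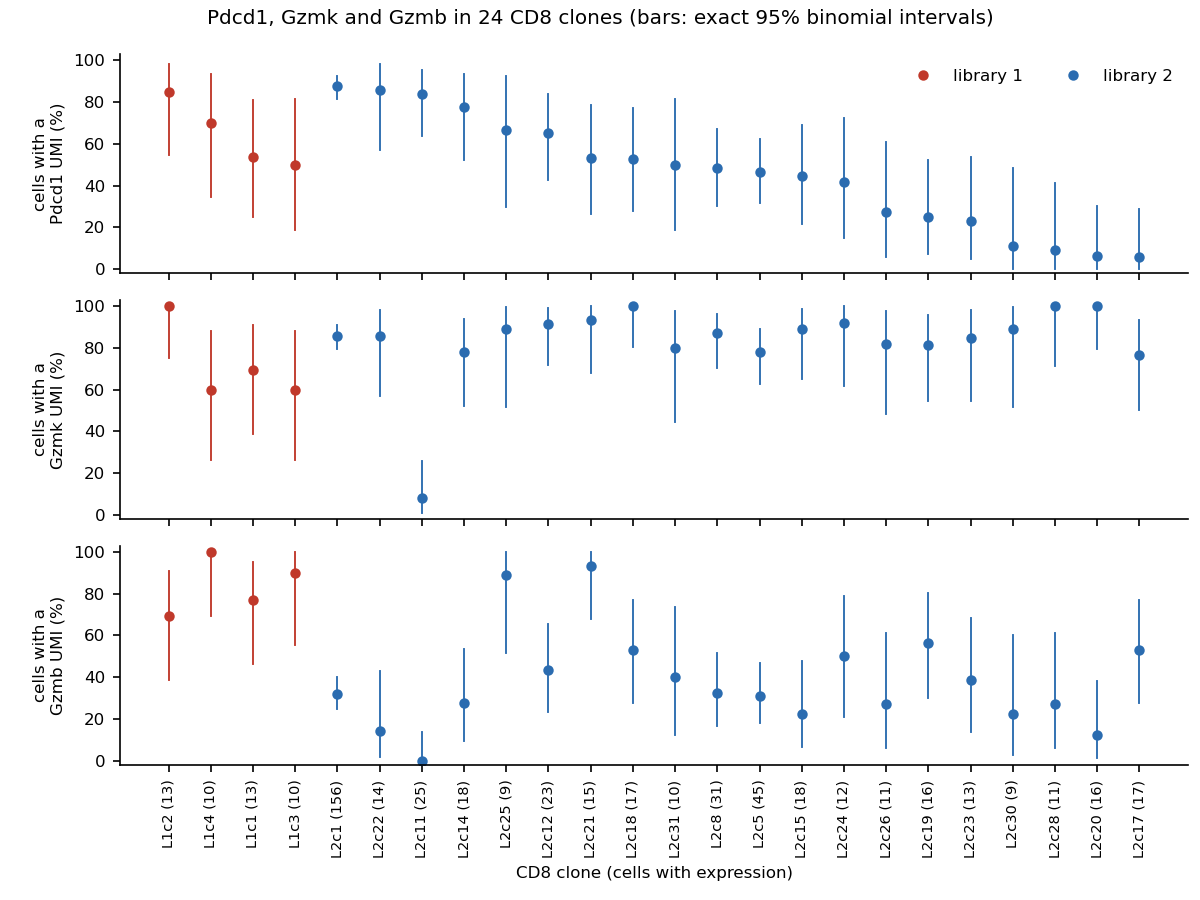
Percent of cells with a UMI of Pdcd1, Gzmk or Gzmb (y axes, with exact 95% intervals) in each of the 24 CD8 clones (x axis, ordered by Pdcd1 within each library). Pdcd1 spans 5.88% to 87.8% in library 2, Gzmk is above 75% in all clones of that library but L2c11, and Gzmb is highest in L1c4 and, within library 2, in L2c21.

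The 3 genes combined differently in different clones. L2c1 had Gzmk without Gzmb in 88 of 156 cells, both in 46, Gzmb alone in 4 and neither in 18. L2c21 had both granzymes in 13 of 15 cells. L2c20 had Gzmk alone in 14 of 16 cells, with Pdcd1 in 1. L2c11 had neither granzyme in 23 of 25 cells, with Pdcd1 in 21. So high Pdcd1 occurred with common Gzmk in L2c1 and with nearly none in L2c11.

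L2c11 stood apart in other genes too. Klrc1, which encodes the inhibitory receptor subunit NKG2A, had a mean level of 5.18 UMIs per 10000 there, the highest in the library, against 0.06 in L2c1 and a median of 0.50. Ccl5 had 3.28, the lowest of the CD8 clones, against a median of 93.1 over those of library 2 and 97.5 in L2c1. L2c11 and L2c1 were alike in Cxcr6 (13.2 and 14.2, median 2.26) and in Lag3, an inhibitory receptor, found in 64.0% and 69.2% of cells. Tox, a transcription factor of chronically stimulated T cells, had 12.8 and 19.5 (median 10.2). Xcl1, a chemokine for dendritic cells, was found in 84.0% of L2c11 and 14.1% of L2c1.

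Levels that moved together over the 20 CD8 clones of library 2 are given as a description. With Pdcd1, Spearman's rho was 0.827 for Lag3, 0.699 for Tox and 0.608 for Tigit, all inhibitory or exhaustion genes, and -0.544 for Tcf7. It was -0.168 for Gzmk and -0.250 for Gzmb. For Pdcd1, Spearman's rho was also 0.562 with the share of cells with Mki67 or Top2a, 0.470 with clone size and -0.014 with the median UMIs. For Ccl5 it was -0.538 with the median UMIs, and the part of depth in this was not tested.

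To set clones against cells, the variance of log(1 + UMIs per 10000) was divided into a part between and a part within clones. The between-clone share is near 0% where a clone says nothing of its cells' level, can fall below 0% by estimation error, and would be 100% if all cells of a clone had the same level. In library 2, over 18 CD8 clones with at least 10 cells with expression (468 cells), it was 40.9% for Pdcd1, 27.7% for Gzmk and 15.7% for Gzmb. Over the 5887 genes found in at least 10% of these cells the median was 0.60% and the 95th percentile 7.45%. In library 1, over 4 clones with 46 cells, it was 10.7% for Pdcd1, 26.2% for Gzmk and 40.5% for Gzmb, beside a median of -1.12% and a 95th percentile of 15.8% over 8553 genes.

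The means of both libraries were 25.8% for Pdcd1, 26.9% for Gzmk and 28.1% for Gzmb. All 3 lay far above the median gene in library 2, while Pdcd1 of library 1 lay below the 95th percentile of its library. Without cells with Mki67 or Top2a, the share in library 2 was 39.6% for Pdcd1, 24.1% for Gzmk and 17.1% for Gzmb. In library 1 that left 2 clones with 15 cells, where it was -15.8%, 6.56% and -6.86%. Without its largest CD8 clone, L2c1, library 2 had 25.6% for Pdcd1, 34.5% for Gzmk and 17.2% for Gzmb. Without L1c1, which ties with L1c2 at 13 cells as the largest of library 1, the values there were 24.7%, 41.2% and 56.4%. The share of Pdcd1 in library 2 thus rested in part on L2c1.

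Counting noise took part of the rest. On the scale of UMIs per 10000 without a log, Pdcd1 of the CD8 clones of library 2 had 34.8% of its variance between clones, 26.6% within clones beyond counting noise and 38.6% from the counting of UMIs. For Gzmk the parts were 26.3%, 23.2% and 50.5%. For Gzmb they were 17.3%, 67.1% and 15.6%, so Gzmb varied mostly between cells of the same clone. With counting noise set aside, the between-clone part was 56.7% for Pdcd1, 53.2% for Gzmk and 20.5% for Gzmb. In library 1 the between-clone part, counting noise included, was 2.35% for Pdcd1, 20.2% for Gzmk and 39.9% for Gzmb. With counting noise set aside it was 2.89%, 27.9% and 40.9% there.

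Gene lists differed in this share. In the CD8 clones of library 2 the median was 22% for genes of residency and homing, 20.0% for inhibitory receptors and exhaustion, 15.4% for cytotoxicity and 14.3% for naive and memory genes. These medians cover the 7 of 10, 13 of 13, 14 of 15 and 5 of 9 members found in at least 10% of the pooled cells. A gene high in a large clone could pass that filter through it, as Rgs16 and Havcr2 did (25% and 41.0% of L2c1, and a median of 0% and 5% over the clones), so the medians are a description of the members that passed. Cxcr6 had 52.0%, Ccl5 46.5%, Tox 42.5% and Lag3 33.0%. Interferon-stimulated genes had a median of 8.22% (10 of 10 members measured), T helper genes 4.38% (3 of 10) and regulatory T cell genes 4.67% (3 of 7). The cell cycle list had -0.442% (4 of 10).

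In library 1 the cytotoxicity list had a median of 20.3% (14 of 15 members measured), the inhibitory list 5.84% (11 of 13), naive and memory genes 0.947% (8 of 9), residency and homing -2.90% (9 of 10), interferon genes -0.490% (10 of 10) and the cell cycle 1.54% (10 of 10). Itgae, the alpha chain of an integrin of tissue-resident T cells, had 47.7%. It was found in 84.6% of L1c1 cells and 30.0% of L1c3.

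T cell receptor and immunoglobulin genes were left out of all these shares, since receptors defined the clones. Over the other genes measured, the highest means of both libraries were those of Gm2682 (46.9%), Ly6c2 (46.2%), Plac8 (45.8%), Ly6a (41.9%), Klrc1 (39.9%), Samd3 (38.4%), Cd5 (35.5%), Tox (35.0%), Capg (34.9%) and Tspan3 (34.2%). Of these, Klrc1 belongs to the cytotoxicity list and Tox to the inhibitory list. Ly6c2, a surface protein of effector and memory CD8 cells, was high or low by clone. Its mean level was 34.6 UMIs per 10000 in L2c25, 17.7 in L2c17, 17.0 in L2c14 and 16.3 in L2c5, and 0.88 in L2c1, 0.35 in L2c8 and 0.29 in L2c28. In library 1 it ran from 5.96 in L1c1 to 32.1 in L1c4. Cd5, a damper of receptor signals, ran from 0.58 in L2c18 to 10.1 in L2c12, and Plac8 from 0 in L1c2 to 8.73 in L1c4.

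In the 10 CD4 clones (360 cells) the median gene of 5581 had 0.25% and the 95th percentile was 5.23%. Rln3 had 67.9%, Tcf7 44.4%, Capg 40.7%, Ikzf2 38.5%, Ifngr1 35.4%, Ccl5 33.9%, Themis 33.5%, Gzmk 33.3%, Foxp3 32.4% and Tnfrsf4 29.4%, the 10 highest. Gzmk was found in 11.1% of these cells and so passed the filter mainly through the clones where it is high, and Rln3 likewise. The members that passed had medians of 24.6% for regulatory T cell genes (7 of 7 members), 8.87% for inhibitory genes (9 of 13) and 24.8% for cytotoxicity genes (5 of 15). Pdcd1 had 16%. The cell cycle list had a median of -1.59% (2 of 10), interferon genes 2.16% (10 of 10), T helper genes 6.19% (8 of 10), residency and homing 4.21% (5 of 10) and naive and memory genes 12.9% (6 of 9).

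**Figure D4:**
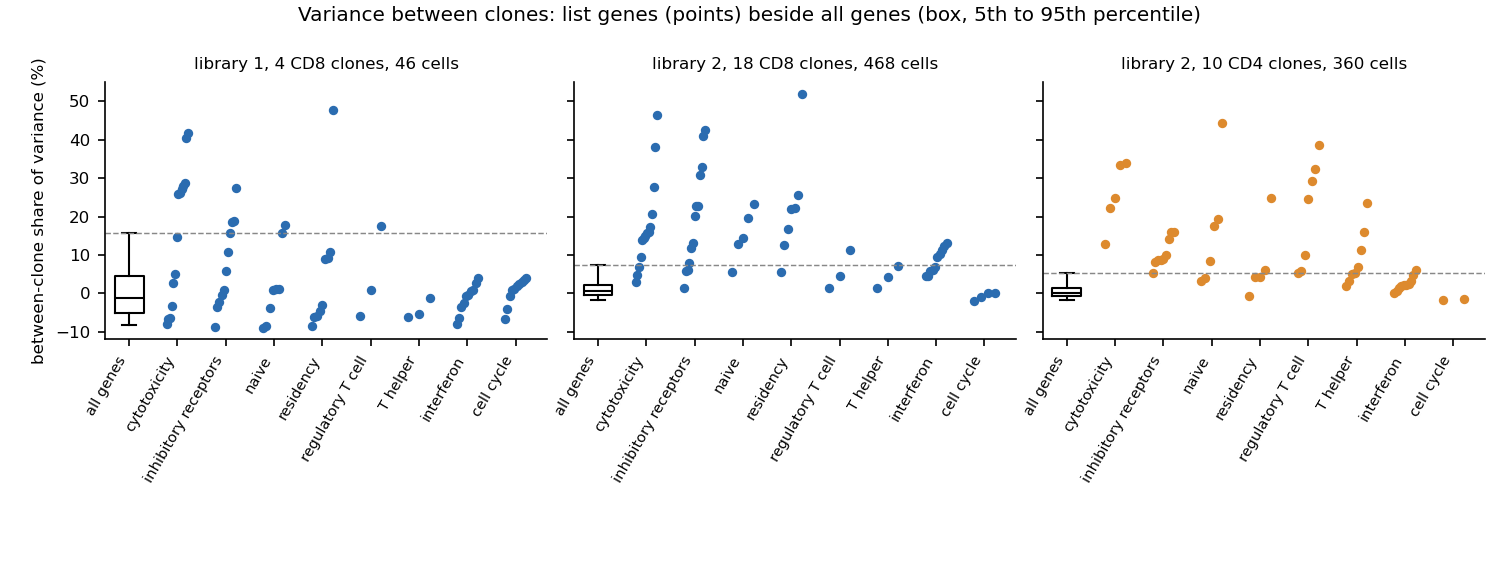
Between-clone share of variance (y axis, percent) of each measured gene of 8 lists (points) beside all genes (box with quartiles, whiskers at the 5th and 95th percentile, dashed line at the 95th), in CD8 clones of library 1 and of library 2 and in CD4 clones of library 2. Cytotoxicity genes reach over 40% in CD8 clones, and cell cycle genes stay near 0%.

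CD8 cells of large clones were then compared with CD8 cells of clones of 1 cell, since clone size was measured apart from expression. UMIs were summed over 46 and 921 cells in library 1 and 487 and 585 cells in library 2. Of the 487, 474 lay in the 20 CD8 clones and the rest were CD8-called cells of other large clones. The quasi-likelihood test of edgeR, with library as a term and thus 1 residual degree of freedom, called 33 of 10262 genes (0.322%) at a false discovery rate (FDR) of 0.05, 7 higher (0.0682%) and 26 lower (0.253%) in large clones. Of these, 9 were T cell receptor or immunoglobulin genes, which leaves 6 genes higher and 18 lower. With the CD8 clones alone as the large class, an alternative chosen after seeing the data, 43 genes were called, all 24 of these among them.

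Pdcd1 rose in large clones. Its summed level was 184 CPM (UMI counts scaled by library size after edgeR's TMM adjustment) in large clones and 49.4 in clones of 1 cell in library 1, and 408 and 63.0 in library 2. The log2 fold change was 2.31 (SE 0.22, edgeR FDR 0.0337). Lag3, another inhibitory receptor, rose by 2.48 (FDR 0.0240) and Nrp1, a semaphorin co-receptor, by 1.77 (FDR 0.0360). Hip1 rose by 1.44, Ccl5 by 1.08 and S100a6 by 0.92. Each of the 6 was higher in both libraries, the same libraries that gave the call.

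L2c1, the largest clone, carried much of the sum in library 2. It gave 522 of the 899 UMIs of Pdcd1 (58.1%) and 198 of the 313 of Lag3 (63.3%). Without it the level of library 2, scaled by the plain library total, was 265 CPM for Pdcd1 in place of 433, against 64.7 in clones of 1 cell, and 81.0 for Lag3 in place of 151, against 22.7. In a fit without L2c1, chosen after seeing the data, edgeR called 13 genes. Of the 24 genes, picked in the same libraries, 24 kept their direction and 5 were called. Pdcd1 (log2 fold change 1.94, edgeR FDR 0.0204) and Ccl5 (1.03, FDR 0.0294) were among the 5. Lag3 (1.95, FDR 0.0865), Lef1 (-1.86, FDR 0.143), Klf2 (-1.58, FDR 0.159) and Ccr7 (-3.30, FDR 0.137) were not, nor were Nrp1, Hip1 and S100a6.

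Among the 18 genes called lower in large clones, receptor segments left out, 3 belonged to the naive and memory list. Lef1, a transcription factor of naive cells, fell by 2.16, Klf2, which controls exit from lymph nodes, by 1.87 and Ccr7, a lymph node homing receptor, by 3.56 on the log2 scale (edgeR FDR 0.0227, 0.0227 and 0.0395). Outside that list, Satb1 fell by 3.07 and Clnk by 4.46. Jchain, a gene of plasma cells and no naive T cell gene, fell by 3.15, but only library 2 had levels to compare, 14.5 CPM in large clones and 129 in clones of 1 cell, against 0 and 0.244 CPM in library 1. It had a log2 fold change of 0.0437 without cells with Mki67 or Top2a. Klra1, Igfbp4 and the gene ENSMUSG00000121360, likewise outside the list, had no UMI in large clones of either library. The lower limits of the counting intervals of their excess in clones of 1 cell were 11.9-fold, 13.1-fold and 11.3-fold in library 1. In library 2 these lower limits were 14.99-fold, 7.96-fold and 24.7-fold. Klra7 had 0 and 2 UMIs in large clones, and in library 2 it was 79.8-fold higher in clones of 1 cell (counting interval 21.9 to 663). Such intervals count UMIs and do not cover the spread between cells or clones. Klra1, Klra6 and Klra7 are closely related Ly49 receptor genes, so their reads may be divided uncertainly among them.

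The granzymes were not among the 33 calls of edgeR. Gzmk had 234 and 46.7 CPM in library 1 and 654 and 269 in library 2 (log2 fold change 1.77, edgeR FDR 0.102). The DESeq2 Wald test called Gzmk (log2 fold change 1.79, FDR 6.01e-06). edgeR called it without cells with Mki67 or Top2a (1.85, FDR 0.00851), without cells with Ccr7 (1.46, FDR 0.0299) and with no filter on low counts. It did not call Gzmk in its other settings, such as CD8 clones alone (1.80, FDR 0.0563). The call of Gzmk thus depended on the test and on the setting. Gzmb had a log2 fold change of -0.21 (FDR 0.849) and its sign depended on the setting. By list, 2 of 12 inhibitory genes and 1 of 15 cytotoxicity genes were called higher, with median log2 fold changes of 1.13 and 0.66, and 3 of 9 naive and memory genes lower, with a median of -1.87. edgeR called 0 of 10 cell cycle, 10 interferon, 9 residency, 6 T helper, 7 regulatory and 2 NK cell genes (medians 0.61, 0.32, 0.19, 0.28, -0.11 and -2.30), beside a median of 0.0035 over all genes tested. In these lists 1, 0, 4, 0, 3 and 1 genes had an unadjusted edgeR p under 0.05, as had 1018 of all 10262 genes tested. DESeq2 called 0, 0, 0, 0, 0 and 1 genes of these lists. In the other lists DESeq2 called 2 of 15 cytotoxicity, 2 of 12 inhibitory, 5 of 9 naive and memory, 3 of 10 myeloid and 1 of 3 B cell genes. Over all genes tested it called 43 of 10262. The myeloid list, with Fcer1g called lower, had a median of -1.55 and the B cell list, with Ighm called lower, -2.29. Their part in the other changes was not tested.

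Among CD8 cells without a UMI of Ccr7 or Lef1, genes of naive and central memory cells, 26 cells of large clones and 220 of clones of 1 cell in library 1, and 401 and 290 in library 2, remained. Of the 24 genes above, picked in these same libraries, 20 could be tested there, all in the same direction. edgeR called 22 genes, 8 of these 20 among them and Pdcd1 not (log2 fold change 1.66, edgeR FDR 0.314). When cells without a UMI of Ccr7 alone were kept, edgeR called 39 genes, 12 of the 22 that could be tested among them, and Pdcd1 passed (log2 fold change 2.00, edgeR FDR 0.0273). The log2 fold change of Gzmb was -1.02 (edgeR FDR 0.0344) under the former and -0.63 (edgeR FDR 0.207) under the latter. Both settings were chosen after seeing the data.

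**Figure D5:**
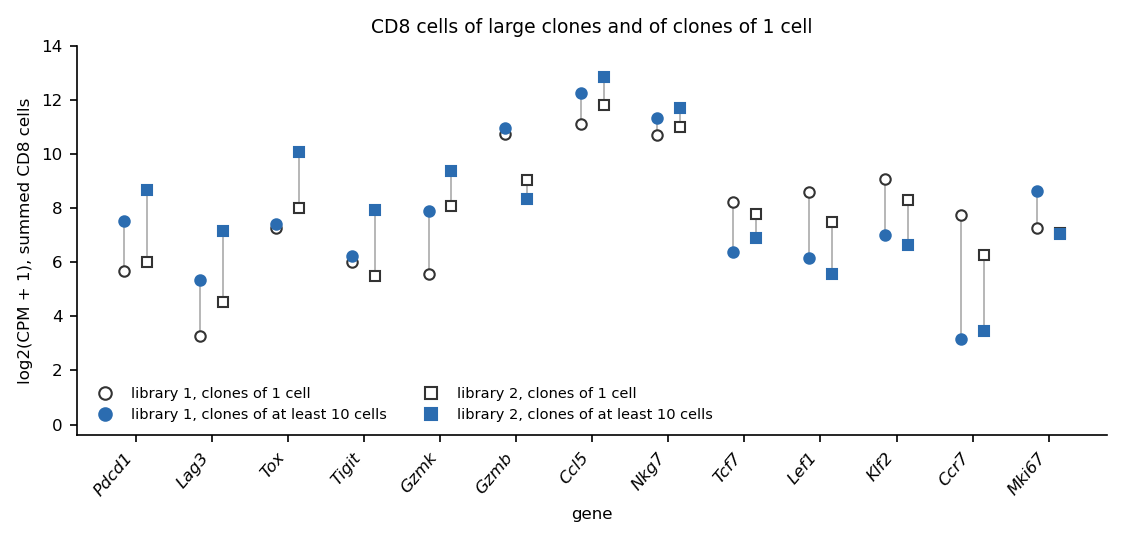
Summed level, as log2(CPM + 1) (y axis), of 13 genes (x axis) in CD8 cells of large clones (filled) and of clones of 1 cell (open) in library 1 (circles) and library 2 (squares). Pdcd1 and Lag3 are higher, and Lef1, Klf2 and Ccr7 lower, in large clones of both libraries.

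The size threshold divides a continuum. Library 2 had 3 clones of 10 cells and 9 of 9 cells, and library 1 had 2 and 1. In library 2, 18 of 27 cells of the former (66.7%) and 17 of 79 of the latter (21.5%) were called CD8. Foxp3 was found in 18.5% and 24.1%, Pdcd1 in 33.3% and 30.4%, Gzmk in 59.3% and 27.8%, and Gzmb in 22.2% and 15.2%. In library 1 all cells of both sizes were called CD8, and Pdcd1 was found in 12 of 20 and 1 of 8 cells.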

How the data were processed

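The authors deposited, per the file headers, unfiltered matrices of UMI counts per gene and droplet made with Cell Ranger 9.0.1, and receptor contigs with UMI counts. The submitters' processing notes name Cell Ranger 7 and 7.1.0, Scanpy 1.8.2 and mm10. Totals were 35785802 UMIs (expression library of library 2) and 87127346 (library 1). Members and gene lists were chosen with earlier results of these data known.

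Cells had to be called by the receptor software, with exactly 1 productive high-confidence TRA and 1 TRB. Of these, expression was read where 200 to 6000 genes were detected and mitochondrial UMIs made up no more than 10%. Doublets were handled only by the 1-pair rule. Levels are mean UMIs per 10000. Clones were called CD8 or CD4 at 80% of singly called cells, with at least 5 such cells, and CD4 clones Foxp3-rich at 50% and Foxp3-poor under 10% of cells. Variance was divided by 1-way random-effects components (method of moments) per library, over clones with at least 10 cells with expression. Cells are not replicates, so these values have no test. Summed counts were tested with edgeR 4.0.16 (R 4.3.3) after TMM and filterByExpr, with Benjamini-Hochberg adjustment, and with DESeq2 1.42.0 as an alternative. The libraries are the replicates (n = 2), and the study describes pooled tumours and pooled experiments. Which tumours entered which library is not given in the sources used here. The p-values rest on how the difference between classes varied over the libraries, with spread shared across genes, and not on spread between tumours.

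Named genes were those of fixed lists, the 10 with the highest between-clone share and up to 5 rises and 5 falls past the FDR with a mean CPM of at least 20. Named clones were the 3 largest of each class, mixed and intermediate clones, those alike in receptor and those with extreme Pdcd1, Gzmk or Gzmb. S100a6, Satb1, Jchain, Klra6, the 10 leading genes of the CD4 clones (library 1 has none) and further clones printed beside these were chosen after their values were seen. Scripts used Python 3.11.15, numpy 2.4.6, scipy 1.17.1 and pandas 2.3.3 and were tested on simulated data.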

Additional observations from a re-analysis of the deposited data

How the results depend on the processing

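The number of large clones was 33 to 42 under other clone definitions, and 4 to 32 when either library was left out. CD8, CD4 and other clones numbered 24, 11 and 1 when 60% of called cells sufficed, 24, 7 and 5 at 95%, and 14, 2 and 18 without cells with at least 2 markers of other cell types. Leaving out a library gave 4 to 20 CD8, 0 to 10 CD4 and 0 to 2 other clones, since CD4 clones lay in library 2.

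The between-clone share in CD8 clones is given as the mean over both libraries unless library 2 alone is named. For Gzmk it was 23.3% without the log, 13.3% for presence after thinning, 35.6% for clones of at least 20 cells (library 2 only), 15.3% without cells with Mki67 or Top2a, 19.2% without cells with other markers (library 2 only), 37.8% without the largest clones and 28.1% for cells with at least 2000 UMIs. For Gzmb it was 15.5% for presence after thinning, and 4.11%, 5.13% and 10.3% for clones of at least 20 cells (library 2 only), without cells with Mki67 or Top2a, and without cells with other markers (library 2 only). By library it ranged from 10.7% to 40.9% for Pdcd1, 26.2% to 27.7% for Gzmk and 15.7% to 40.5% for Gzmb. Under the other settings Pdcd1 had means of 11.9% to 31.2% over both libraries, and 36.1% and 36.7% where library 2 alone gave a value.

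The 33 genes called between large clones and clones of 1 cell became 555 with no filter on low counts, 20 for clones of at least 5 cells, 93 without cells with Mki67 or Top2a and 13 without the largest clone, L2c1, and 22 to 43 with size factors, with DESeq2, with clones of 1 to 2 cells, with CD8 clones alone, without cells with Ccr7 and without cells with Ccr7 or Lef1, where Pdcd1 was not called. Library in the model is the replicate block, since both classes came from the same libraries. With no replicate block 2 genes were called, 0 of the 24 among them, and Pdcd1 was not. Of these 24 genes, 24 had the same direction in each library alone, which gives no test. The log2 fold change of Gzmb was 0.0671 with no replicate block, 0.0571 for clones of at least 5 cells, 0.12 without cells with Mki67 or Top2a, and -0.67 to 0.24 when either library was left out. Jchain had 0.0437 without cells with Mki67 or Top2a, and Tcf7, not called, 0.0792 without cells with Ccr7 or Lef1. Clones of at least 20 cells could not be fitted here, since library 1 has none. Settings on 2000 UMIs for the shares, on Ccr7, on Ccr7 or Lef1, on CD8 clones alone and on L2c1 were chosen after seeing the data. The causes of these moves were not tested.

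Clones of 8 to 20 cells have wide intervals on every share. Library 1 has 4 large clones, 46 cells, and library 2 shallow cells, in which a missing UMI of Cd4 or Foxp3 does not show that the gene is off. With 2 libraries and 1 residual degree of freedom, the test rests on spread shared across genes.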
